A study of Mus musculus with 112 samples.

Results

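The muscle-rich and muscle-poor groups are 17 and 17 of the 52 ranked tumours, chosen by their signal of Tnnt3, the gene of the fast skeletal muscle troponin T, out of 56 tumours in the series. The tumours arose spontaneously in mice of the cross labelled AKXD x PyMT, with the polyoma middle T antigen (PyMT) expressed from the MMTV promoter, which is active in mammary epithelium. AKXD are recombinant inbred sublines, and the ranked tumours came from 17 of the series' 18 sublines. All groups carry the transgene, no sample without it was used here, and the labels give no age or sex. Total RNA was taken from whole tumour tissue, and each tumour was hybridised to an Affymetrix MOE430A array and a MOE430B array, called array A and array B below. Values are RMA signals on a log2 scale, on which a difference of 1 is a 2-fold change.

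Tnnt3 has 1 probe set, on array A, and its signal alone set the groups. It ranged over 9.43, 10.84 and 11.73 (lowest, median and highest) in the muscle-rich tumours, over 8.17, 8.73 and 9.38 in the 18 tumours between the groups, and over 6.41, 6.84 and 8.08 in the muscle-poor tumours. The last tumour inside the muscle-rich group was tumour 2 of subline 25 at 9.43, and the first outside it was tumour 1 of subline 16 at 9.38. At the lower limit, tumour 1 of subline 21 at 8.08 was inside the muscle-poor group and tumour 2 of subline 16 at 8.17 was outside it. The ranking was continuous at both limits, so the groups are the ends of a range and not separate classes. The rest of the text asks which other genes went with Tnnt3 over tumours, and Tnnt3 itself is not tested.

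Skeletal muscle fibres contract when calcium released from the sarcoplasmic reticulum binds troponin on the thin filament and lets myosin pull on actin. Fast fibres use their own isoforms of myosin, troponin and the calcium pump and live largely on creatine phosphate and glycolysis, while slow fibres use slow isoforms, many of them shared with the heart, and burn fat. Mammary glands lie in fat pads just under the skin, next to the skin's own muscle sheet and the muscles of the body wall. In whole tissue, fewer muscle cells and less muscle RNA per cell cannot be told apart.

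The tumours were spread over the sublines. Muscle-rich tumours came from 12 sublines and muscle-poor tumours from 13, and 8 sublines gave tumours to both groups. Subline 2 gave muscle-rich tumours with Tnnt3 at 11.00 and 9.78 and muscle-poor tumours at 6.84 and 6.55. Subline 10 gave 1 muscle-rich tumour at 10.96 and muscle-poor tumours at 7.61 and 7.19. In subline 21 all 3 tumours were muscle-poor, at 8.08, 7.98 and 6.68, and no subline had only muscle-rich tumours. Littermates or cages are not given, so the p-values below measure the spread between tumours as labelled.

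The arrays of both groups were alike in their correlations, and their 3′ minus 5′ control differences were slightly higher in the muscle-rich tumours. The median correlation of an array with the others was 0.987 in both groups on array A. For the Gapdh control probe sets, the 3′ minus 5′ medians were -0.12 in the muscle-rich and -0.19 in the muscle-poor tumours on array A. On array B they were -0.21 and -0.31. For actin they were 0.27 and 0.19 on array A and 0.32 and 0.29 on array B. Whether this shift bears on the calls was not tested. On array A, 4 tumours stood apart from the rest, with median correlations of 0.948, 0.918 and 0.223 for tumours 1, 2 and 3 of subline 23 and 0.868 for tumour 3 of subline 25. They were not ranked, and their Tnnt3 signals were 10.93, 8.20, 9.61 and 8.98. The milk protein gene Csn3 and the luminal keratin gene Krt18 were strong in both groups. Csn3 averaged 14.37 ± 0.08 in muscle-rich and 14.30 ± 0.20 in muscle-poor tumours, and Krt18 12.90 ± 0.10 and 12.74 ± 0.24 in the same order (SD, n = 17 each). Csn3 lay near the highest signal of array A, 14.89, and several other milk genes differed more, as given below.

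On array A, 997 probe sets were higher in the muscle-rich tumours, 4.41% of the 22625 tested, and 698 were lower, 3.09% (limma, Benjamini-Hochberg adjusted p under 0.05). On array B, 248 of 22511 were higher, 1.1%, and 83 lower, 0.369%. Most of these differences were small, with a median of 0.27 among the higher and -0.24 among the lower probe sets of array A. Differences beyond 1 on the log2 scale ran nearly all one way: 77 higher probe sets from 64 named genes, of which 38 belong to the muscle lists described below, and 2 lower ones. Over all probe sets the median difference was -0.018 on array A and -0.001 on array B. In 55 probe sets of array A, 0.243%, every muscle-rich tumour lay above every muscle-poor tumour, and in none did every one lie below. On array B 22 probe sets, 0.0977%, separated the groups in this way and again none in the other direction. With the 4 tumours that stood apart ranked too, and 19 tumours at each end, the calls were 334 on array A and 190 on array B. Without subline 10, 24 or 22 they were 770, 851 and 965 on array A and 163, 177 and 196 on array B, so the count moved by over 1.5 times without each of them.

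The thin and thick filaments of fast fibres gave the widest differences. List counts and medians take each gene's brightest probe set, and calls at other probe sets are given where they add genes. In counts at any probe set, genes with more probe sets have more chances to pass. No share over all genes was taken for such counts. All 12 measured genes of the fast sarcomere list were higher in the muscle-rich tumours, with a median difference of 3.30, and in 11 of them the groups did not overlap. These genes describe the same tissue as Tnnt3, and the list was drawn up with results of these data known. Tnnc2, the calcium-binding fast troponin C, had 11.29, 12.47 and 13.16 (lowest, median, highest) in muscle-rich tumours, against 5.64, 7.28 and 9.27 in muscle-poor tumours, a difference of 4.98 ± 0.356 (SE) or 31.5-fold (limma adjusted p = 5.74e-13). Every muscle-rich tumour also lay above every tumour between the groups. The inhibitory subunit of the same complex, Tnni2, differed by 3.95 ± 0.224 at its best-separated probe set and by 1.85 at its brightest one.

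Myh4, the myosin heavy chain of the fastest (IIb) fibres, ranged over 9.59, 10.78 and 11.64 in muscle-rich tumours, against 4.70, 6.14 and 7.94 in muscle-poor tumours. The difference was 4.63 ± 0.310, or 24.8-fold (limma adjusted p = 1.02e-13). The muscle-poor tumours were themselves uneven in this gene: 8 of them lay between 4.70 and 5.21 and 9 between 6.14 and 7.94, with none in between. A second Myh4 probe set, on array B, differed by 2.44 ± 0.199 (limma adjusted p = 7.31e-11). Myh1, the IIx myosin, averaged 10.22 ± 0.69 in muscle-rich and 6.02 ± 1.26 in muscle-poor tumours (SD, n = 17 each), a difference of 4.20. Myh2, the IIa myosin of fast but oxidative fibres, ranged over 7.84, 9.53 and 10.75, against 5.91, 6.34 and 7.20, a difference of 2.88 ± 0.220 (limma adjusted p = 3.55e-12). All 3 fast myosins thus separated the groups completely. Their genes are close in sequence, and how far 1 probe set also takes up the RNA of another was not tested.

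Acta1, skeletal alpha actin, had 12.43, 13.31 and 13.80 in muscle-rich tumours, against 6.25, 8.32 and 11.12 in muscle-poor tumours, 22.3-fold apart (4.48 ± 0.413, limma adjusted p = 4.74e-10). Its spread was wide among the muscle-poor tumours, with SDs of 0.45 in the muscle-rich and 1.74 in the muscle-poor group. The fast light chains Myl1 and Mylpf differed by 3.70 and 3.73, the fast alpha actinin Actn3 by 2.34, and the fast myosin-binding protein Mybpc2 on array B by 2.89. Myoz1, a Z-disc protein of fast fibres, differed by 1.52. The smallest difference on the list was 0.41 for Mylk2, the skeletal myosin light chain kinase, the 1 gene of the 12 whose groups overlapped.

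**Figure D1:**
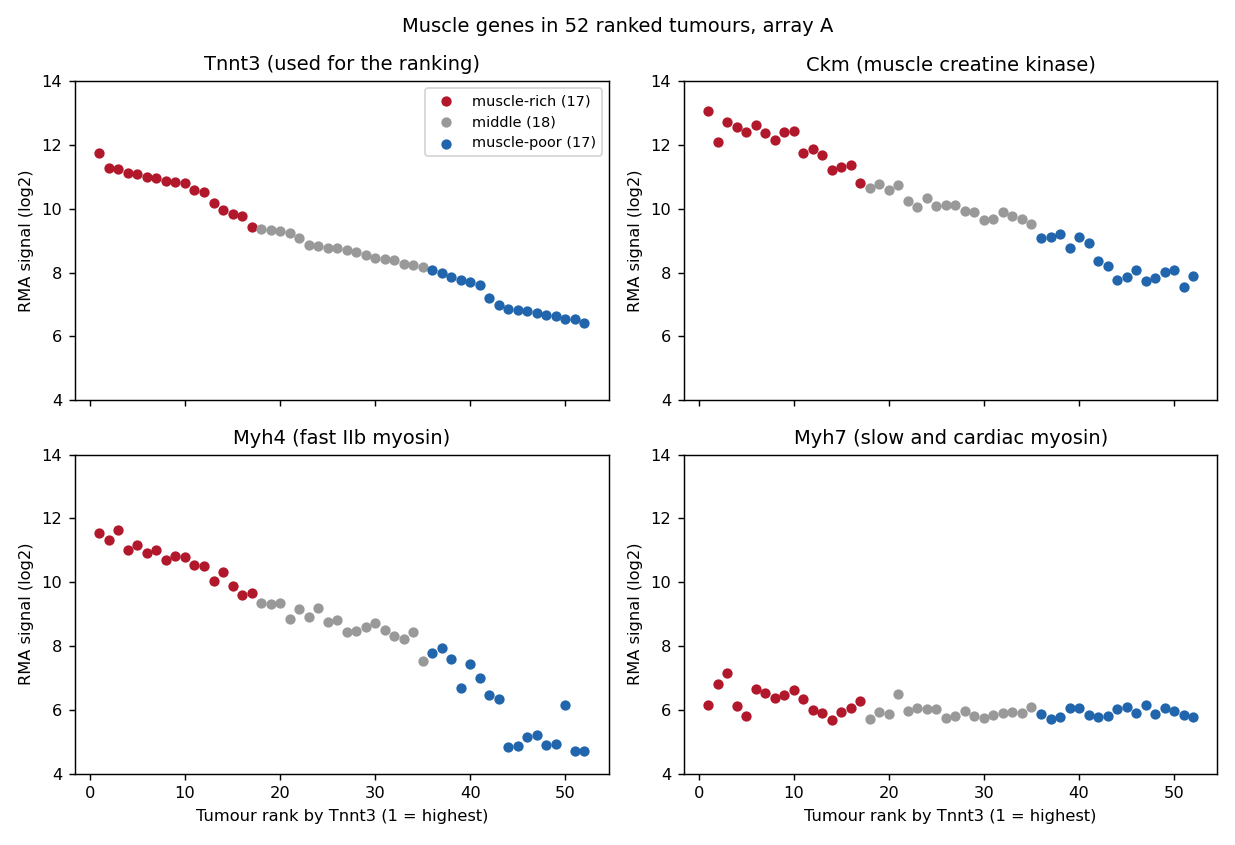
RMA signal (log2, y axes) of Tnnt3, Ckm, Myh4 and Myh7 on array A in the 52 ranked tumours, placed by their Tnnt3 rank (x axes, 1 = highest), one point per tumour, coloured as muscle-rich (17), middle (18) or muscle-poor (17). Ckm and Myh4 fall along the whole ranking, with 8 muscle-poor tumours at 4.70 to 5.21 for Myh4, while Myh7 stays between 5.70 and 7.14 in every tumour.

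The promoters of 3 of the widest-separated genes are printed here because they show sequence motifs long tied to muscle transcription. They are RefSeq windows of 300 bases on GRCm38.p6, from 250 bases before to 50 after the gene's start, read 5′ to 3′ on the gene's strand. Capitals mark matches on either strand to the E-box CAGCTG (bound by MyoD-family factors), the MEF2 site, the CArG box (bound by serum response factor) or the TATA box TATAAA, and overlapping matches run together, as the MEF2 and a TATAAA match do in Myh4. Myh4 lies at chr11:67237562-67237861 on the + strand, Acta1 at chr8:123894726-123895025 on the - strand and Ckm at chr7:19410844-19411143 on the + strand.
Myh4: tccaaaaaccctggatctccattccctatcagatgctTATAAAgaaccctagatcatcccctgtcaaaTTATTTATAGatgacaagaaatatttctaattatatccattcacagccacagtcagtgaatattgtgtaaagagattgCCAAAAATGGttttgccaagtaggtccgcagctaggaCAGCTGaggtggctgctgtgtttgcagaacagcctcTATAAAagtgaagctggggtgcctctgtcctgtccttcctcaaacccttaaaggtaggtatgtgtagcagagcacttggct
Acta1: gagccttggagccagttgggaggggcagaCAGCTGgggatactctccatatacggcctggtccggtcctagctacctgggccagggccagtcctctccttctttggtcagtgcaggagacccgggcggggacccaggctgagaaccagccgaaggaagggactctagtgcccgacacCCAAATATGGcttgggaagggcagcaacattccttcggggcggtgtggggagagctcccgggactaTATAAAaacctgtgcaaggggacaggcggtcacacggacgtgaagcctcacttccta
Ckm: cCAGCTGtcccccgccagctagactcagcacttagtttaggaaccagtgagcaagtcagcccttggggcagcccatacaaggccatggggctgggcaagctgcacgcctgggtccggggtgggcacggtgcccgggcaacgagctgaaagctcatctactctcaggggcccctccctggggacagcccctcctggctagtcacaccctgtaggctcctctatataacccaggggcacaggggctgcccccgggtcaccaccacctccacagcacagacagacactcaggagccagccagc

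All 3 windows hold 1 CAGCTG, at base 184 in Myh4, base 30 in Acta1 and base 2 in Ckm, counted from the window's 5′ end. Of the 62 genes called higher in the 4 lists of fast sarcomere, sarcomere structure, excitation and calcium, and muscle energy, 44 had a RefSeq window, 52 windows in all. CAGCTG was found in 48.1% of these windows, against 16.3% of all 32851 windows. The MEF2 site was found in 11.5% against 3.19%, the CArG box in 5.77% against 1.63%, and TATAAA in 11.5% against 13.6%. A match is a run of letters in the window and no evidence of binding in these tumours.

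The proteins that hold the sarcomere together moved with the filaments. Of 24 measured genes of the sarcomere structure list, 21 were higher and none was lower, with a median difference of 0.94, and at any probe set all 24 were higher. Ttn, the spring protein titin, averaged 10.33 ± 0.62 in muscle-rich and 6.69 ± 0.69 in muscle-poor tumours (SD, n = 17 each), a difference of 3.63 ± 0.214 (limma adjusted p = 4.68e-15). Neb, nebulin, the ruler of the thin filament, ranged over 6.82, 8.17 and 9.30 on array B in muscle-rich tumours, against 4.44, 4.75 and 5.63 in muscle-poor tumours, a difference of 3.20 ± 0.208 (limma adjusted p = 3.33e-13). Tcap, the titin cap, differed by 2.33, the Z-disc protein Myot by 2.57, Smpx by 2.19 and the M-band protein Myom2 by 2.85 on array B. Tpm2, beta tropomyosin, differed by 2.67 at its best-separated probe set but by 0.37 at its brightest one, which did not pass the test (limma adjusted p = 0.0805).

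Of 17 measured genes of excitation and calcium handling, 11 were higher and 1 was lower, and 14 were higher at some probe set. Atp2a1, the calcium pump of the fast sarcoplasmic reticulum, averaged 12.08 ± 0.63 in muscle-rich and 8.11 ± 0.84 in muscle-poor tumours (SD, n = 17 each), 15.7-fold apart (limma adjusted p = 7.96e-15). Pvalb, the calcium buffer parvalbumin, ranged over 10.00, 11.45 and 12.09, against 7.13, 7.68 and 8.62, a difference of 3.40 ± 0.190 (limma adjusted p = 1.55e-15). Ryr1, the calcium release channel, differed by 2.60, and Casq1, the fast calcium store protein, by 1.89. The gene that was lower was Asph, at -0.41 ± 0.106 at its brightest probe set (limma adjusted p = 0.0135). Its 6 probe sets were called in both directions, so it also counts among the 14. Others were higher at 0.51 and 0.33 (limma adjusted p = 1.13e-05 and 0.000858) and lower at -0.35 (limma adjusted p = 0.00219). Asph encodes both junctin of the calcium release complex and an aspartyl hydroxylase made in many other tissues. Scn4b, a sodium channel subunit, and Srl, the reticulum protein sarcalumenin, were among the 8 best-separated genes of array B, at 0.87 and 1.33. Tmem182, a muscle membrane protein, differed there by 1.56 and Hjv, hemojuvelin of iron sensing in liver and muscle, by 0.86.

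The muscle energy list, which holds genes of fast and of oxidative fibres, was higher as well. Of its 22 measured genes 18 were higher and none was lower, with a median of 1.13. Ckm, muscle creatine kinase, was the gene with the smallest p of array A: it ranged over 10.81, 12.17 and 13.07 in muscle-rich tumours, against 7.55, 8.08 and 9.22 in muscle-poor tumours, 13.2-fold apart (3.72 ± 0.195, limma adjusted p = 4.71e-16). The middle tumours, at 9.52 to 10.76, fell between the groups without touching either. Pygm, muscle glycogen phosphorylase, differed by 2.77 and Eno3, muscle enolase, by 2.72. Pgam2, the muscle phosphoglycerate mutase, differed by 2.01. Mb, myoglobin, the oxygen store of oxidative fibres, ranged over 8.85, 9.78 and 10.54, against 8.10, 8.41 and 8.83, so the groups did not overlap but nearly touched, with a difference of 1.19 ± 0.122 (limma adjusted p = 7.11e-09).

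Slow-fibre genes differed by far less on the log2 scale. Of 12 measured, 7 were higher and none was lower, with a median difference of 0.28, and in every one of the 12 the groups overlapped at that probe set. Myh7, the slow and cardiac beta myosin, ranged over 5.70, 6.27 and 7.14 in muscle-rich tumours, against 5.71, 5.88 and 6.15 in muscle-poor tumours, a difference of 0.37 ± 0.0957 (limma adjusted p = 0.0136). Myl2, its regulatory light chain, ranged over 5.76, 6.49 and 7.51, against 5.65, 5.98 and 6.27, a difference of 0.52 (limma adjusted p = 0.00856). Some muscle-rich tumours were high in both genes and others were level with the muscle-poor tumours. Mybpc1, the slow myosin-binding protein that many fast fibres also make, had the widest difference on the list, 1.30 ± 0.142 on array B (limma adjusted p = 6.42e-08). Its other probe sets there were higher at 1.81 ± 0.176 (limma adjusted p = 4.05e-09) and 0.46 ± 0.0801 (limma adjusted p = 0.000541). Myoz2, Tnnt1 and Tnnc1 differed by 0.55, 0.49 and 0.37, and Casq2 by 0.15. Tnni1 at 0.19 (limma adjusted p = 0.0514) and Myh7b at -0.01 did not pass the test. The brightest probe sets of Myl3 at 0.09, Atp2a2 at 0.01 and Tpm3 at -0.06 did not pass, but other probe sets were higher: 1 of 3 for Myl3 (0.35), 1 of 6 for Atp2a2 (0.17) and 2 of 5 for Tpm3 (0.27 and 0.13). At any probe set, 10 of the 12 slow-fibre genes were thus higher, a count with no share over all genes to set beside it. Whether the fast and the slow lists differ in their response was not tested, and signals of different probe sets are not on one scale.

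**Figure D2:**
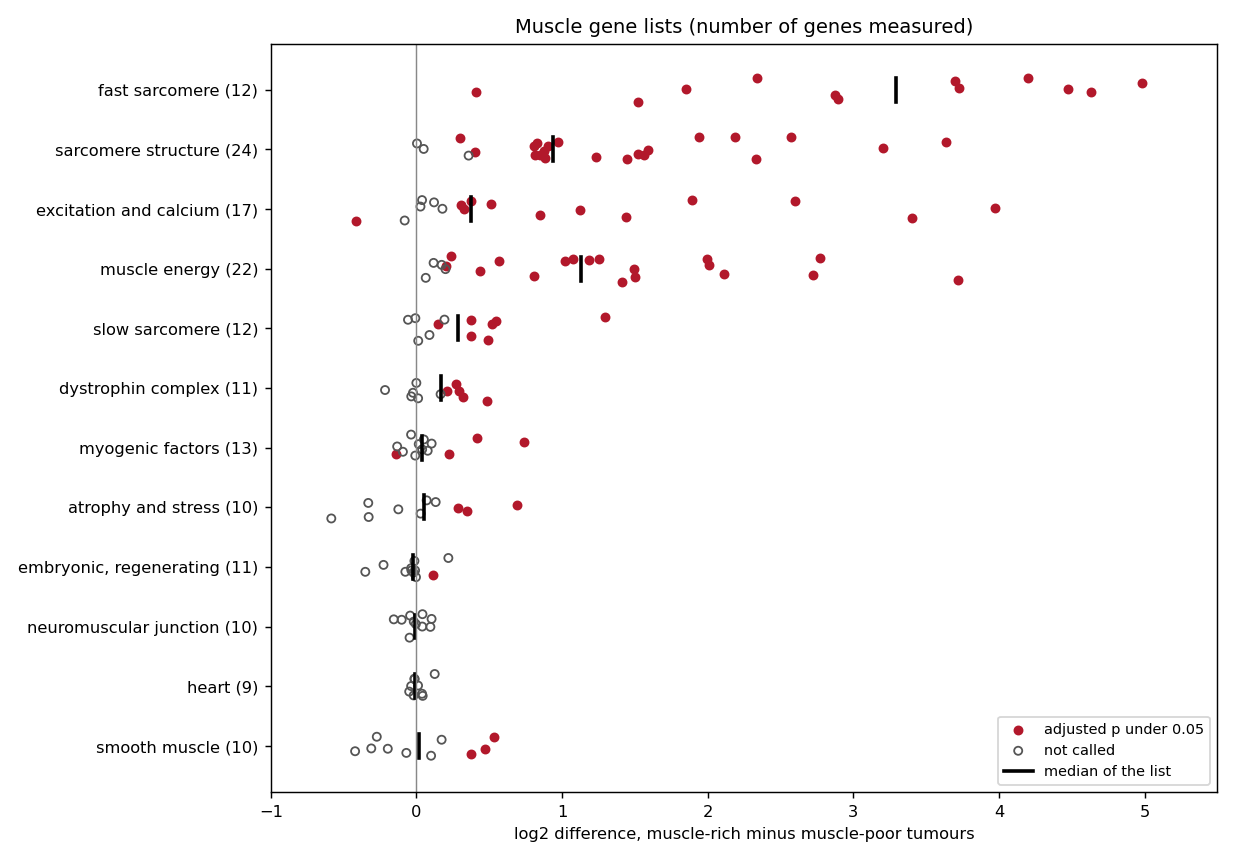
Log2 difference (x axis, muscle-rich minus muscle-poor, n = 17 each) of each measured gene, at its brightest probe set, in 12 muscle lists (y axis, with the number of genes measured), filled where the limma adjusted p is under 0.05 and open otherwise, with a bar at each list's median. The fast sarcomere list has its median at 3.30, the slow list at 0.28, and the embryonic, neuromuscular junction and heart lists lie around 0.

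Most genes of muscle formation, repair and innervation did not pass the test. Over all probe sets, 4.41% were higher and 3.09% lower on array A, and 1.1% and 0.369% on array B. The 3 of 13 myogenic factors called higher are a larger share than these, which was not tested. Of 13 measured myogenic factors, Mef2c (0.74 ± 0.125), Myf6 (0.42 ± 0.0622) and Vgll2 (0.23) were higher and Tead4 was lower at -0.14. Myf6, also called MRF4, is the member of the MyoD family that adult fibres keep, and it averaged 6.54 ± 0.21 in muscle-rich and 6.13 ± 0.16 in muscle-poor tumours (SD, n = 17 each, limma adjusted p = 1.86e-05). Its relatives of the myoblast stages, Myod1 at 0.02, Myog at 0.05 and Myf5 at 0.04, did not pass, nor did the satellite cell factors Pax7 at -0.13 and Pax3 at -0.09. The remaining factors, Mef2a, Mef2d, Six4 and Rbm24, lay between -0.04 and 0.10 at their brightest probe sets, but 2 of 5 Rbm24 probe sets were higher, at 0.22 and 0.26 on array B (limma adjusted p = 0.00154 and 0.000417).

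Of 11 embryonic or regenerating-fibre genes, 1 was higher, the perinatal myosin Myh8 at 0.11 (limma adjusted p = 0.0397). The embryonic myosin Myh3 differed by less than 0.01 on the log2 scale, averaging 4.70 ± 0.11 in muscle-rich and 4.70 ± 0.09 in muscle-poor tumours (SD, n = 17 each). The others did not pass either: Actc1 at 0.22, Ncam1 at -0.35, Tnnt2 at -0.23, Mymk, the fusion protein myomaker, at -0.08, Chrng at -0.04, Chrnd at -0.03, Myl4 at -0.02, and Cdh15 and Igf2 at -0.01. None of 10 neuromuscular junction genes passed at its brightest probe set, with Chrna1, the acetylcholine receptor alpha subunit, at 0.10 and Agrn, agrin, at -0.16, but the other Agrn probe set, on array B, was lower at -0.50 (limma adjusted p = 0.0141). None of 9 heart genes passed: Tnni3 was at 0.13, Nppb at -0.05, Myl7 and Myh6 at 0.04 each, Nkx2-5 at -0.04, Tbx5 at -0.02, Tbx20 at 0.01, and Ryr2 and Nppa at -0.01. RMA gives no call of presence, so a low signal here is not shown to be an absent transcript.

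Of 11 dystrophin complex genes, 5 were higher and none lower, among them Lama2, the laminin chain of the muscle basement membrane, at 0.48 and Cav3, the muscle caveolin, at 0.29, while Dmd itself, at under 0.01, did not pass. In the list of atrophy and stress genes, 3 of 10 were higher: Trim63, the ubiquitin ligase MuRF1, at 0.69 on array B, Klf15 at 0.34 and Murc, now called Cavin4, at 0.29. Cdkn1a and Foxo3 were lower at another probe set only, at -0.45 and -0.14. Fbxo32, the ligase atrogin-1 that often rises with Trim63 in wasting muscle, was at 0.03 (limma adjusted p = 0.912). Of 10 smooth muscle and pericyte genes, 3 were higher, Synpo2 at 0.53, Rgs5 at 0.47 and Pdgfrb at 0.37, while smooth muscle actin Acta2 was at -0.31 and did not pass. Another of the 4 Synpo2 probe sets, on array B, was higher at 1.75 (limma adjusted p = 2.11e-08). The 3 genes that were higher are made by pericytes or, for Synpo2, also by striated muscle.

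Fat-cell genes were higher in the muscle-rich tumours too. Of 13 measured, 11 were higher and none was lower, with a median difference of 0.73. Adipoq, the fat-cell hormone adiponectin, ranged over 8.38, 10.20 and 11.40 in muscle-rich tumours, against 5.34, 7.71 and 9.93 in muscle-poor tumours, a difference of 2.25 ± 0.350 (limma adjusted p = 3.63e-05). The groups overlapped: 5 of the 17 muscle-poor tumours lay above the lowest muscle-rich tumour, and the highest of them, tumour 3 of subline 20 at 9.93, had the lowest Tnnt3 of all. Fabp4, the fatty acid carrier, differed by 1.85, Cd36 by 1.80 and Lpl, lipoprotein lipase, by 1.61. Car3, which both fat and slow muscle make, differed by 2.27 ± 0.253. The summed level of the list (log2 of the mean linear signal of its genes on array A) ranged over 9.11, 10.20 and 10.91 in muscle-rich tumours, against 7.97, 8.65 and 10.01 in muscle-poor tumours.

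Brown fat shares its origin and parts of its metabolism with muscle. Ucp1, the uncoupling protein that defines brown and beige fat cells, ranged over 7.08, 8.96 and 11.52 in muscle-rich tumours, against 6.88, 7.11 and 8.20 in muscle-poor tumours, a difference of 1.98 ± 0.320 (limma adjusted p = 6.85e-05). In 13 of the 17 muscle-rich tumours the signal was above that of every muscle-poor tumour, and the other 4 lay within their range. Cidea differed by 1.36, Otop1 by 0.52 on array B and Ebf2 by 0.27, which makes 4 of 8 measured brown fat genes higher and none lower. Elovl3 at 0.12, Ppargc1a at 0.07, Zic1 at under 0.01 and Dio2 at -0.02 did not pass at their brightest probe sets, and another of the 3 Dio2 probe sets was higher at 0.26 (limma adjusted p = 0.0476).

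In the 18 tumours between the groups, which the comparison did not use, Adipoq also went with Tnnt3: Pearson's r was 0.593 (permutation p = 0.0094, adjusted over the 4 genes examined 0.0376) and Spearman's rho 0.558 (adjusted p = 0.0409), two-sided. Without the 2 tumours farthest from the median Tnnt3, r was 0.660. For Ucp1, r was 0.163 (permutation p = 0.516) and rho 0.214 (p = 0.392), so no relation was detected there over this narrower range of Tnnt3. The same Tnnt3 signal placed these tumours between the groups, and the 4 genes were taken with earlier results of these data known. Several of these tumours came from the same subline, which r and rho do not take into account. The values for the middle tumours are thus a description and no separate evidence.

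**Figure D3:**
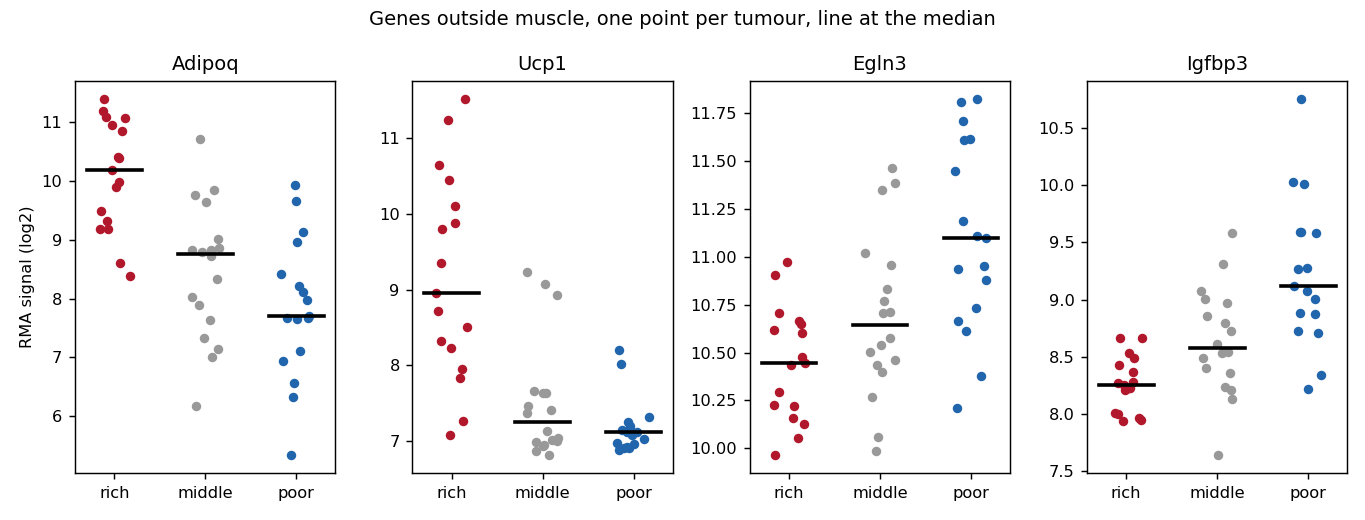
RMA signal (log2, y axes, each with its own range) of Adipoq, Ucp1, Egln3 and Igfbp3 on array A in muscle-rich (17), middle (18) and muscle-poor (17) tumours, one point per tumour with a line at the median. Adipoq and Ucp1 have medians of 10.20 and 8.96 in the muscle-rich and 7.71 and 7.11 in the muscle-poor tumours, and Egln3 and Igfbp3 medians of 10.45 and 8.25 against 11.10 and 9.12.

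Because fat and muscle moved together, each gene was also fitted with a fat-cell score as a covariate, the mean deviation of the list's array A genes. The score ranged over -0.16, 0.61 and 1.35 in muscle-rich tumours, against -1.25, -0.49 and 0.56 in muscle-poor tumours, so the covariate takes with it whatever went with fat. With it, 60 probe sets of array A were higher, 0.265%, and 2 lower, 0.00884%. On array B 25 were higher, 0.111%, and 1 lower, 0.00444% (limma adjusted p under 0.05). The higher ones on array A belong to 55 named genes, 36 of them in the muscle lists, and on array B to 20 genes, 10 of them in those lists. The lower ones were Avpr1a, Pilrb1 and, on array B, Hoxc10, the last 2 named after their values were seen.

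With the covariate, 11 of the 12 fast sarcomere genes kept their call, with Myh4 at 4.92 and Tnnc2 at 5.46, and Mylk2 lost it. Of the sarcomere structure list 13 genes were still called, of muscle energy 10 and of excitation and calcium 6. At their brightest probe sets, none of the slow sarcomere, brown fat, fat-cell, dystrophin, myogenic factor or hypoxia genes was called. At other probe sets, Car3 of the fat-cell list (0.62, limma adjusted p = 0.0110) and Mybpc1 of the slow list were. The Synpo2 probe set of array B, of the smooth muscle list, kept its call too, at 1.52 (limma adjusted p = 0.0107). For Ucp1 the difference became 0.94 (limma adjusted p = 0.66), for the brightest of 3 Mybpc1 probe sets 0.99 (limma adjusted p = 0.051), while another was called at 1.68 (limma adjusted p = 0.00173), and for Mef2c 0.44 (limma adjusted p = 0.63). The score includes Car3, which slow muscle also makes, so the covariate may take some muscle signal with it. A call lost with the score is therefore not shown to be a difference in fat. These values show which differences remained beside this score in 34 tumours, not which tissue made the RNA.

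**Figure D4:**
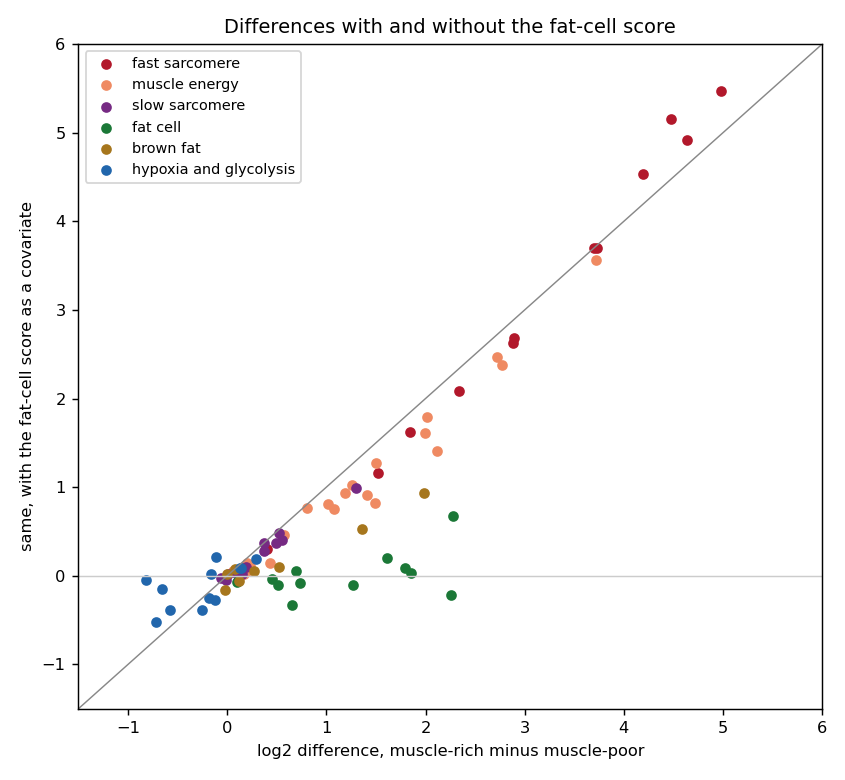
Log2 difference (muscle-rich minus muscle-poor) of each gene in 6 lists without (x axis) and with (y axis) the fat-cell score as a covariate, and the line of equal values. Fast sarcomere genes stay near the line, with Tnnc2 at 4.98 and 5.46, while fat-cell genes drop towards 0, with Adipoq at 2.25 and -0.22, as the covariate is built from them.

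Comparing tumours only within sublines, by a term for each subline, left 362 probe sets of array A higher, 1.6%, and 80 lower, 0.354%. Only the 8 sublines with both groups inform this fit, with 11 muscle-rich and 10 muscle-poor tumours. A call lost within sublines is therefore not shown to be a difference between sublines. On array B 74 were higher, 0.329%, and 4 lower, 0.0178%. At brightest probe sets all 12 fast sarcomere genes, 19 of 24 structure genes, 16 of 22 energy genes and 9 of 13 fat-cell genes were called, with Myh4 at 4.56 and Adipoq at 2.33. Between tumours of the same subline, Myh4 and Adipoq thus differed about as widely as over all tumours, at 4.63 and 2.25.

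Genes of other stromal cells differed by less than 1 on the log2 scale. The share higher over all probe sets was 4.41% on array A and 1.1% on array B. Whether the count of any list here differs from it was not tested. Of 11 endothelial genes 5 were higher, with Tek at 0.36, Tie1 at 0.36 and Vwf at 0.50, and none was lower. Of 12 macrophage genes 4 were higher, Csf1r at 0.40, Mpeg1 at 0.35, Cd163 at 0.50 and Mrc1 at 0.55. The fibroblast list had 3 of 14 higher, all fibrillar or microfibrillar collagen genes (Col6a2 at 0.45, Col6a1 at 0.38 and Col5a1 at 0.25). Of 11 tendon and cartilage genes Cilp at 0.93 and Thbs4 at 0.85 were higher, while the tendon markers Scx at -0.10 and Tnmd at -0.02 did not pass. Thy1 was higher among 8 T cell genes, and no gene passed among 9 B and plasma cell, 9 neutrophil, 3 blood, 12 skin or 6 salivary genes. None of 8 Schwann cell and nerve genes passed at its brightest probe set, but Mbp, myelin basic protein, was higher at 5 of 8 probe sets (0.21 to 0.88) and Scn7a at 2 of 3 (0.26 and 0.51). Egfl7 of the endothelial, Mfap5 of the fibroblast and C1qb of the macrophage list were also higher at other probe sets. None of the genes named here kept its call with the fat-cell score as a covariate.

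**Figure D5:**
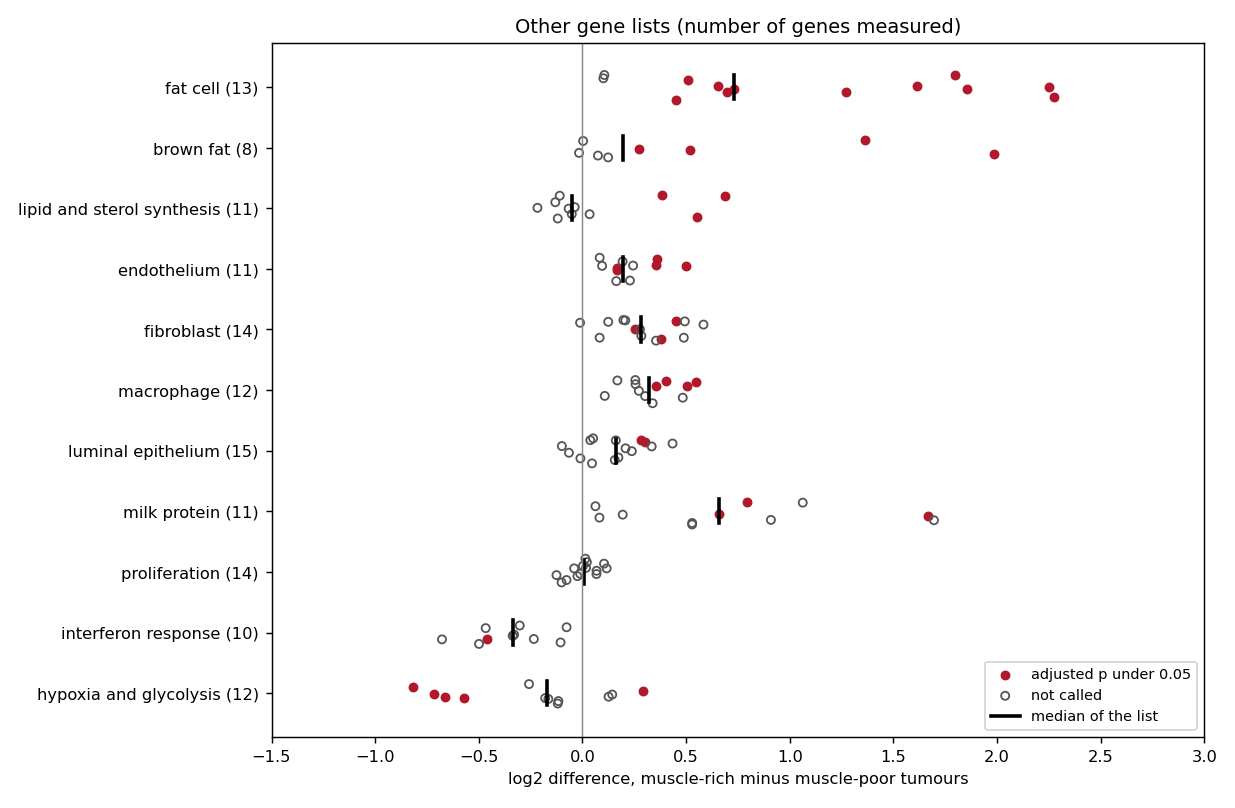
Log2 difference (x axis, muscle-rich minus muscle-poor, n = 17 each) of each measured gene, at its brightest probe set, in 11 lists outside muscle (y axis, with the number of genes measured), filled where the limma adjusted p is under 0.05, with a bar at each list's median. Fat-cell genes reach 2.27 and brown fat genes 1.98, proliferation genes lie around 0, and 4 hypoxia genes lie between -0.82 and -0.57.

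Mitochondrial fuel genes were in part higher. Of 13 genes of the citrate cycle and fat oxidation 8 were higher, with a median of 0.21, such as Acadm at 0.29, Hadhb at 0.40 and Cpt2 at 0.30. Of 21 respiratory chain genes 6 were higher (8 at any probe set), with a median of 0.12, led by Sdhb at 0.22 and Sdha at 0.17. The 11 genes of fat and sterol synthesis had a median of -0.05, with 7 of them negative. Fasn at 0.69, Scd1 at 0.55 and Elovl6 at 0.38 were higher, and no sterol synthesis gene passed. At other probe sets Acaca was higher at 0.52 on array B (limma adjusted p = 0.00649) and Scd2 lower at -0.60 (limma adjusted p = 0.0225).

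Among genes of cell growth, none of 14 proliferation genes passed, with a median of 0.01, and none of 13 ribosomal or 12 immediate early genes did. Of the epithelial lists, none of 8 basal genes passed. Of 15 luminal genes Gata3 at 0.30 and Foxa1 at 0.28, both transcription factors of luminal cells, were higher. Over all probe sets of array A, 4.41% were higher, and the luminal count was not tested against this share. The milk list had a median difference of 0.66, with all 11 measured genes positive, and 3 of them passed as higher, Csn2 (beta casein) at 1.67 ± 0.519, Btn1a1 at 0.80 and Lalba at 0.66. Csn2 ranged over 11.03, 12.86 and 14.01 in muscle-rich tumours, against 5.93, 11.07 and 13.72 in muscle-poor tumours (limma adjusted p = 0.0412), and 14 of the 17 muscle-rich tumours lay below the highest muscle-poor one. None of the 5 luminal and milk genes was called within sublines.

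Some genes of the response to low oxygen differed in the other direction. Of 12 hypoxia and glycolysis genes, with a median of -0.17, 4 were lower in the muscle-rich tumours and 1, the glycolytic enzyme gene Aldoa, strong in muscle, was higher at 0.29. Egln3, an oxygen-sensing prolyl hydroxylase that hypoxia induces, ranged over 9.96, 10.45 and 10.97 in muscle-rich tumours, against 10.21, 11.10 and 11.82 in muscle-poor tumours, a difference of -0.66 ± 0.134 (limma adjusted p = 0.0016). Car9, the carbonic anhydrase induced by hypoxia, ranged over 7.53, 8.24 and 9.23, against 8.06, 9.37 and 10.01, a difference of -0.82 ± 0.186 (limma adjusted p = 0.00478). For both genes 15 of the 17 muscle-poor tumours lay above the median of the muscle-rich ones, and the groups overlapped. Vegfa, the vessel growth factor, was lower by -0.57 ± 0.132 and Adm, adrenomedullin, by -0.72 ± 0.212. Pgk1 at -0.16, Slc2a1 at -0.18, Bnip3 at -0.26, Ldha at 0.13 and Hk2 at 0.14 did not pass.

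Within sublines Egln3 at -0.79 and Car9 at -0.77 kept their calls, and with the fat-cell score none of the 4 did, with Car9 at -0.05 and Egln3 at -0.14. In the 18 middle tumours Egln3 had an r of -0.446 with Tnnt3 (permutation p = 0.0638, adjusted 0.0850) and a rho of -0.337 (adjusted p = 0.224), which did not pass. All 10 measured interferon-response genes had negative differences, with a median of -0.33, but only Ifit2 passed, at -0.46 ± 0.127 (limma adjusted p = 0.0227). Over all probe sets of array A, 3.09% were lower, and 1 call among 10 genes was not tested against this share.

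Among the 15 best-separated lower genes of array A, Igfbp3, which binds insulin-like growth factors in the extracellular fluid, had the widest difference. It ranged over 7.94, 8.25 and 8.67 in muscle-rich tumours, against 8.22, 9.12 and 10.76 in muscle-poor tumours, a difference of -0.98 ± 0.159 (limma adjusted p = 7.82e-05). The muscle-rich tumours were tightly grouped, and 16 of 17 muscle-poor tumours lay above their median. Its probe set on array B gave -0.94 ± 0.150 (limma adjusted p = 0.000116). In the middle tumours Igfbp3 had an r of -0.504 with Tnnt3 (permutation p = 0.0330, adjusted 0.0660) and a rho of -0.546 (adjusted p = 0.0409). With the fat-cell score the difference was -0.51 (limma adjusted p = 0.65).

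The gene with the smallest p among the lower ones was Avpr1a, a vasopressin receptor, with a small but even difference: 6.55 ± 0.08 in muscle-rich and 6.75 ± 0.10 in muscle-poor tumours (SD, n = 17 each), or -0.21 ± 0.0330 (limma adjusted p = 6.4e-05). It was lower with the fat-cell score (-0.24, limma adjusted p = 0.0306) and within sublines (-0.21, limma adjusted p = 0.0483) as well. Next came Abcc1, a drug and glutathione exporter, at -0.31, Hebp2 at -0.24, the anaphase-promoting subunit Cdc27 at -0.30, the BMP pseudoreceptor Bambi at -0.37, the cell cycle brake Ccng2 at -0.43, ephrin B2 (Efnb2) at -0.25 and Moxd1 at -0.73. The remaining 6, Tnks2 at -0.52, Stam2 at -0.19, Baz1b at -0.27, Cdc37l1 at -0.25, Phip at -0.33 and Trpm7 at -0.40, passed at 1 or 2 dimmer probe sets, while their brightest probe sets lay between -0.25 and 0.10 and did not pass.

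On array B the other lower genes were Kansl1 at -0.24, Ttc14 at -0.29, Bbx at -0.34, Rictor, a subunit of the mTORC2 kinase, at -0.32, the splicing factor Srsf11 at -0.40, Pabpc4l at -0.36 and Dock1, an activator of Rac, at -0.53. For Kansl1, Ttc14, Bbx and Rictor the brightest probe set did not pass. None of the array B genes in this group was called within sublines or with the fat-cell score.

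Lower calls beyond 1 on the log2 scale were 3, and they are named after their values were seen. A2m, the plasma protease inhibitor alpha-2-macroglobulin, averaged 6.87 ± 0.57 in muscle-rich and 8.21 ± 1.28 in muscle-poor tumours, a difference of -1.35 ± 0.323 (limma adjusted p = 0.00786). Ecrg4, a secreted peptide precursor, averaged 7.91 ± 0.64 and 9.17 ± 1.59 in the same order, a difference of -1.26 ± 0.392 (limma adjusted p = 0.0421), while a probe set of array B, at -1.47, did not pass (limma adjusted p = 0.0647). Col25a1, a membrane collagen, ranged on array B over 5.81, 6.43 and 7.30 in muscle-rich tumours, against 6.42, 7.47 and 9.87 in muscle-poor tumours, a difference of -1.19 ± 0.262 (limma adjusted p = 0.0093). In all 3 genes the muscle-poor tumours were the more variable ones.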

How the data were processed

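Total RNA of 56 mouse mammary tumours was measured on MOE430A and MOE430B arrays. The deposited values are log2 signals made by the authors with RMA, per the submitters' processing notes; the RMA version is not given in the sources used here. Of the probe sets other than controls, 20380 of 22626 on array A and 14661 of 22511 on array B carry 1 gene symbol in the platform annotation. Tumours were ranked on array A, and array B was taken for the same tumours (without tumour 3 of subline 11). Each probe set was fitted with limma 3.58.1 in R 4.3.3 (lmFit and eBayes, 17 against 17 tumours, no covariate, Benjamini-Hochberg over all probe sets of an array), after a check on simulated data. Gene lists used each gene's brightest probe set, array A first. Correlations used 100000 permutations in scipy 1.17.1. The groups, the 36 gene lists and the tests were chosen with earlier results of these data known. Genes were named by rule: the 15 smallest p in each direction on array A and 8 on array B. The rule also took up to 4 members of each list, and all members of the fast, slow, myogenic, embryonic and heart lists. Adipoq, Mb, Myot, Aldoa, Csn3, Krt18, Dmd, Fbxo32, Acta2, Scx and Tnmd were named after their values were seen. So were 4 brown fat and 5 hypoxia genes that did not pass, genes given for calls at other probe sets, and those so marked in the text. The number of tumours limits precision.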

Additional observations from a re-analysis of the deposited data

How the results depend on the processing

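The medians of 36 lists were recomputed under 10 settings, and 345 of these 360 values moved by less than the spread between tumours. In 32 of them the sign changed: 11 with the fat-cell score, and 21 under other settings, all of these in lists with a median under 0.1 in size. On array A the 1695 calls became 442 with a term for each subline, 62 with the fat-cell score, 1073 without the dimmer probe sets (those under the median signal), 2935 with array quality weights, 1114 with 26 against 26 tumours and 334 with all 56 tumours ranked. On array B the 331 calls became 78, 26, 205 (26 against 26) and 190 (all 56) under the matching settings, and 602 with Tnnt3 as a continuous term. Leaving out all tumours of 1 replicate number gave 483 to 1467 calls on array A (483 without number 1, 553 without number 3) and 98 to 312 on array B (98 and 115). Leaving out each subline in turn gave 770 to 2022 and 163 to 440, and each tumour 1192 to 2110 and 243 to 460; these last alternatives were added after the data were seen.

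Mean deviations of tumours with the same replicate number were little correlated between the groups (0.08, -0.0042 and 0.11 for numbers 1, 2 and 3). No pairing by number was thus detected, and whether a batch goes with the number was not tested. Number 1 stood for 7 muscle-rich and 5 muscle-poor tumours, and number 3 for 3 and 7. With a replicate block the calls were 1870 and 388. Of the 120 called probe sets of named genes, 118 kept their call with the block, 75 within sublines and 32 with the fat-cell score. With that score the list median was 0.82 for muscle energy, 0.067 for fat oxidation, -0.06 for fat cells, -0.01 for endothelium, -0.057 for Schwann cells, -0.17 for fibroblasts, -0.10 for macrophages, -0.15 for T cells and -0.34 for B cells. As a mean, sarcomere structure was 1.30, excitation and calcium 0.98, brown fat 0.54 and lipid synthesis 0.084, and from array A alone the first pair were 1.44 and 0.68. Single genes changed sign with the fat-cell score: Itga7 (-0.0027), Vwf (-0.015), Esam (-0.015), Col6a2 (-0.0034), Csf1r (-0.0201), Cd163 (-0.10), Mrc1 (-0.28), Thy1 (-0.036) and Btn1a1 (-0.056). With all 56 tumours Ndufa1 was at -0.0086. The cause was not tested, beyond the covariate being built from the fat-cell list. Ranking by the fast sarcomere score chose the same 34 tumours. Ranking by a second Tnnt3 probe set was not run, since the arrays hold 1.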
